A study of Mus musculus with 16 samples.

Results

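Liver transcripts of 30 listed genes of mitochondrial fatty acid oxidation and ketone body metabolism were followed across genotype and fasting. The genes were chosen by name, from the enzymes that activate fatty acids, carry them into mitochondria, oxidise them and turn the product into ketone bodies. Of the 30 genes, 27 were measured by a probe set with 1 gene symbol, out of 19938 genes in all. Acsl1 is not in the annotation table used here, and Acsl3 and Cpt1b lie only on probe sets that carry more than 1 symbol, so these 3 were not analysed here. Hadhb was the only gene of the set with more than 1 probe set, and its brighter probe set was used.

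Long-chain fatty acids are activated to acyl-CoA by acyl-CoA synthetases and cross into the mitochondrion as carnitine esters, a step controlled by carnitine palmitoyltransferase 1 and inhibited by malonyl-CoA. Each turn of beta-oxidation then runs through an acyl-CoA dehydrogenase, a hydratase, a hydroxyacyl-CoA dehydrogenase and a thiolase, with electrons passed through electron transfer flavoprotein to the respiratory chain. In the liver of a fasting animal much of the acetyl-CoA formed is exported as the ketone bodies acetoacetate and beta-hydroxybutyrate, and many of these genes are known targets of the nuclear receptor PPAR-alpha.

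The study concerns methylmalonic acidemia, in which methylmalonyl-CoA mutase, encoded by Mut (now Mmut), is lost. Affymetrix Mouse Gene 1.0 ST arrays were used for the livers of 16 male mice aged 4 months, 1 liver per array, in 4 groups of 4. Heterozygotes were Mut +/-;TgINS-MCK-Mut and mutants Mut -/-;TgINS-MCK-Mut, and each genotype was taken without a fast on normal diet (HetUnfasted, MutUnfasted) and after one (HetFasted, MutFasted). The fast lasted 12 hours in heterozygotes and 8 to 12 hours in mutants, so it was not matched between genotypes. All mice, the heterozygous controls included, carried the TgINS-MCK-Mut transgene, whose muscle creatine kinase (MCK) promoter directs the enzyme to muscle, and no group without the transgene was analysed here.

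Values are the deposited log2 expression values, and a difference of 1 is a 2-fold change. A gene was called when its limma p-value, after Benjamini-Hochberg adjustment across the 19938 genes, was under 0.05, and differences are given ± standard error with 4 arrays per group. Replicates are named by the number in their labels, and values per array are listed in the order of replicates 1 to 4. Probe sets differ in their response, so levels are not compared between genes.

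Mmut, the targeted gene, averaged 9.82 and 9.89 in unfasted and fasted heterozygotes and 8.04 and 8.09 in unfasted and fasted mutants, and all 8 mutant arrays lay below every heterozygous array. The hepatocyte markers matched the labelled tissue, with 7 of 8 listed markers measured, none of them called in any comparison (at most 2 of the 7 had an unadjusted limma p under 0.05 in any of them), and a summed log2 level of 15.68 to 16.05 over the arrays. MutUnfasted replicate 1 stood apart by pancreatic acinar transcripts: Cpa1 read 12.29 there and 6.84 to 7.22 on the other arrays, and Ctrb1 read 12.64 against 7.16 to 7.63. The summed adipose level, from 4 of 5 listed markers, was 8.55 to 9.29 in fasted mutants and 8.56 to 8.72 in the other groups. Adipoq, Plin1 and Ucp1 reached 6.43, 8.12 and 7.57 in fasted mutants, against at most 5.81, 7.82 and 6.22 elsewhere. Lep reached 6.14 in fasted mutants and 6.20 elsewhere. No adipose marker was called in any comparison, and the part of adipose transcripts in the enzyme values was not tested. Markers of other cell types differed between genotypes. The summed endothelial level was 11.51 to 11.92 on the heterozygous arrays and 12.04 to 12.52 on the mutant ones, and the summed macrophage level was 12.88 to 13.28 in fasted mutants against 12.00 to 12.59 in fasted heterozygotes. The summed stellate and fibroblast level was 12.67 to 12.89 on the heterozygous arrays and 12.90 to 13.32 on the mutant ones, and the erythroid gene Alas2 was lower in mutants, by -1.30 unfasted and -1.53 fasted (adjusted p = 0.025 and 0.0075). Of 8 muscle markers 0 were called by limma in any comparison (at most 2 at an unadjusted p under 0.05). In whole liver, fewer cells of a type and less RNA per cell cannot be told apart.

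Fasting was accompanied by higher levels of enzymes at 5 of the 7 steps of the pathway in heterozygotes and 4 in mutants, and no gene was called lower. In heterozygotes 8 of the 27 genes were called higher and none lower, with Acsl4 and Acsl5 below their unfasted values on every fasted array but not called (adjusted p = 0.085 and 0.071), where 0.732% of all genes were called higher, 0.838% lower and 1.57% in either direction. These were Cpt1a, Cpt2 and Crat at mitochondrial entry, the dehydrogenase Acadm, Etfdh of electron transfer, Hadha and Hadhb of the trifunctional protein, and the isomerase Eci1. The median difference over the 27 genes was 0.20, against 0.01 over all genes. In mutants 6 of the 27 were called higher and none lower, where 2.33% of all genes were called higher, 1.02% lower and 3.35% in either direction, and the median was 0.20 against -0.01. Cpt1a, Etfdh, Hadha, Hadhb and Eci1 were called in both genotypes, which is 62.5% of the 8 and 83.3% of the 6. The matching share over all called genes is not given here, so this overlap is not shown to be particular to the enzymes. The fasting comparisons of the genotypes share no array. They do share an estimate of spread for each gene, made from all 16 arrays, so their calls are not independent.

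These counts depended on single arrays. In heterozygotes 3 genes, Cpt1a, Acadm and Etfdh, were called without HetUnfasted replicate 4 or without HetFasted replicate 2, and 5 without HetFasted replicate 1 or replicate 4. In mutants 2 genes were called without MutUnfasted replicate 2, MutUnfasted replicate 4 or MutFasted replicate 2, and 3 without MutFasted replicate 3. Without MutUnfasted replicate 1, the array with acinar transcripts, 11 genes were called in mutants, with Cpt2, Acadvl, Acadl, Acad11 and Eci2 added to the 6. A fit of only the mutant arrays called 1. Here and for later counts under alternative fits, the share of all genes called in the same fit is not given. The changes in count are therefore not shown to be particular to the enzymes.

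Mutant livers had higher levels of some enzymes of the pathway, and no gene was called lower. In the unfasted state 5 of the 27 genes were higher in mutants and none lower, where 4.25% of all genes were called higher, 3.69% lower and 7.94% in either direction. They were the dehydrogenases Acadl and Acad10, Hadha, Hadhb and the ketone body enzyme Bdh1. In the fasted state 7 of the 27 were higher and none lower, where 8.62% of all genes were called higher, 5.01% lower and 13.6% in either direction. They were the acyl-CoA synthetases Acsl4 and Acsl5, Acadl, Hadha, Hadhb, the isomerase Eci2 and Bdh1. The median difference over the 27 genes was 0.16 in the unfasted state, against 0.01 over all genes, and 0.11 in the fasted state, against -0.02. Acadl, Hadha, Hadhb and Bdh1 were called in both states, which is 80% of the 5 and 57.1% of the 7, again without the matching share over all called genes. The genotype comparisons of the feeding states share no array, but they too share the estimate of spread for each gene, so their calls are not independent. Each genotype comparison shares arrays with each fasting comparison, so the genotype and fasting values are set side by side without a count of overlap.

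The unfasted count was 3, with Acadl, Acad10 and Hadhb left, without HetUnfasted replicate 3, HetUnfasted replicate 4 or MutUnfasted replicate 1, and 8 without HetUnfasted replicate 2. A fit of only the unfasted arrays called 2. The fasted count was 4, with Acsl4, Acsl5, Acadl and Hadhb left, without HetFasted replicate 3 or MutFasted replicate 4. Of the macrophage markers 7 of 8 were called higher in fasted mutants and 0 of 8 in unfasted mutants (3 of 8 at an unadjusted limma p under 0.05), and of the endothelial markers 4 of 6 were called higher in each state. Stellate and fibroblast markers were called higher for 4 of 6 unfasted and 2 of 6 fasted, and lymphocyte markers for 0 of 6 unfasted (1 at an unadjusted limma p under 0.05) and 2 of 6 fasted. The part of these cell types in the enzyme differences was not tested.

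**Figure D1:**
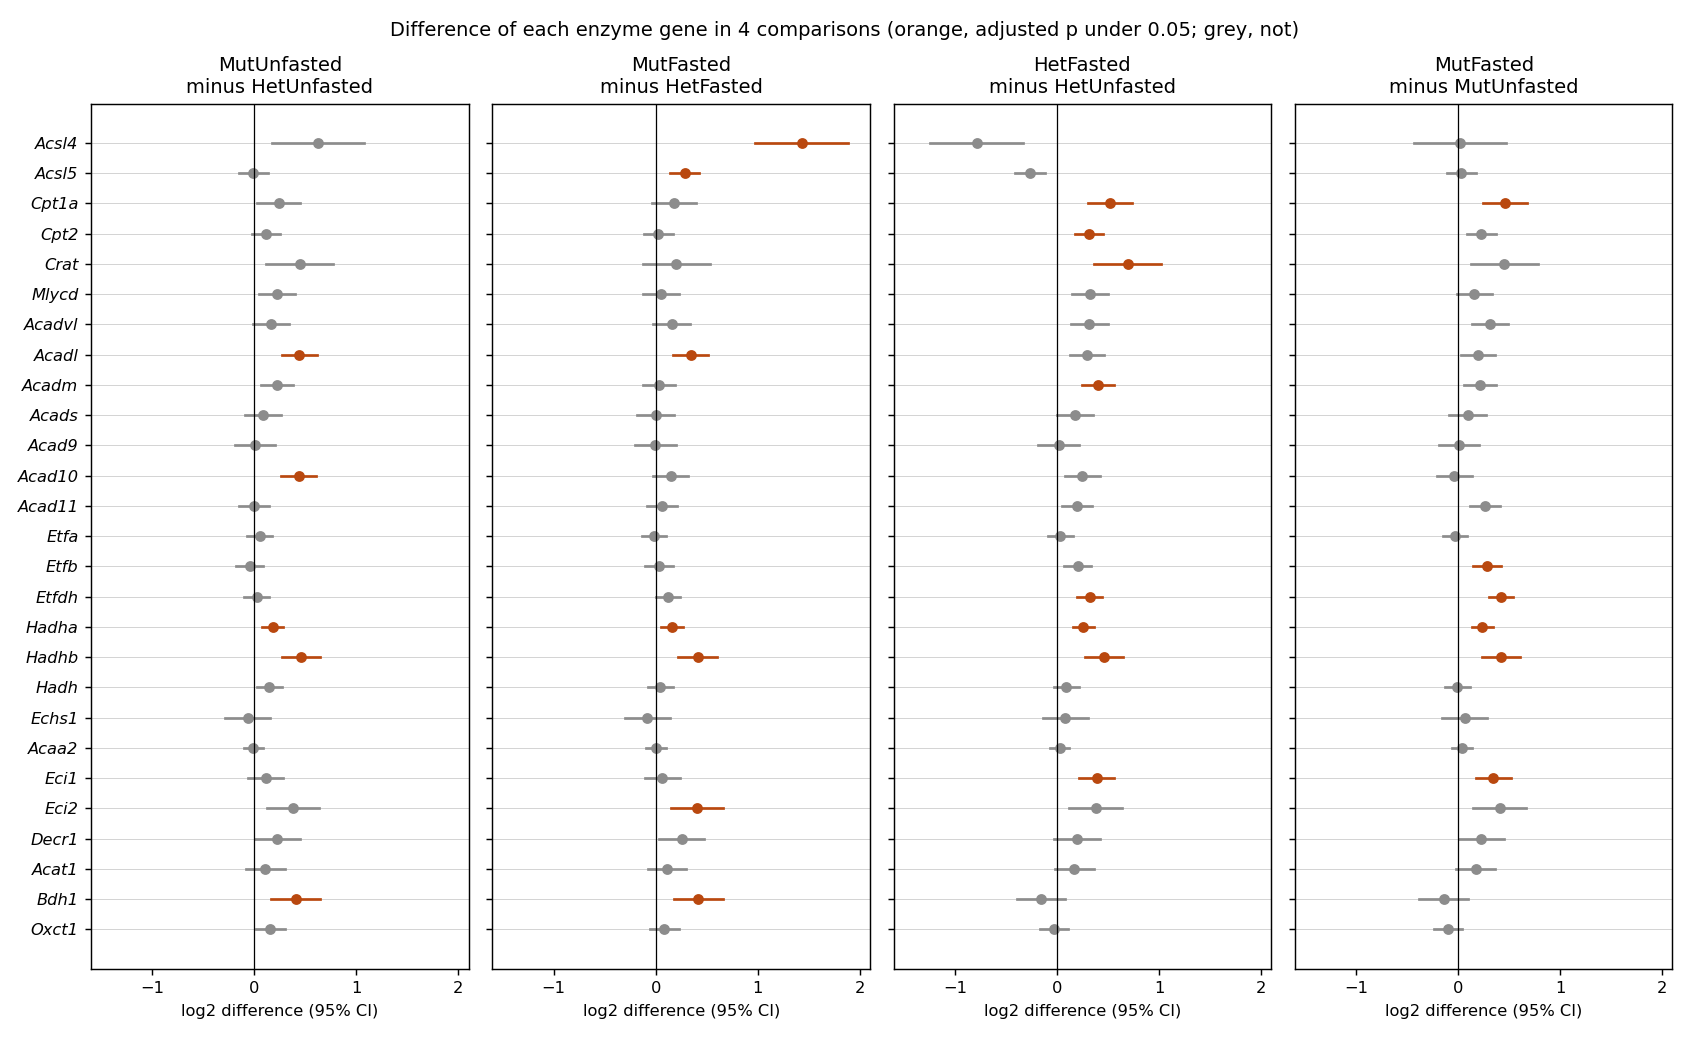
Difference of each of the 27 enzyme genes (rows, ordered by step) in the 4 pairwise comparisons of genotype or feeding (panels), on the log2 scale with 95% confidence intervals from the limma fit. Orange marks the 5, 7, 8 and 6 genes called from left to right, all of which lie above 0, and grey marks genes not called.

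Activation was represented by Acsl4 and Acsl5. Acsl4 is an acyl-CoA synthetase known for its preference for arachidonic acid, and it had the largest fasted genotype difference of the set. It read 10.72, 10.24, 10.24 and 10.65 in unfasted heterozygotes and 9.35, 9.51, 10.22 and 9.62 in fasted heterozygotes. The mutant arrays read 11.40, 11.30, 10.53 and 11.13 unfasted and 11.26, 11.43, 10.73 and 11.01 fasted. Every fasted heterozygous array lay below every unfasted one and below all mutant arrays, whereas the mutant feeding groups overlapped. In the fasted state Acsl4 was 2.70-fold higher in mutants (log2 difference 1.43 ± 0.21, limma adjusted p = 0.00084). The unfasted genotype difference was 0.63 ± 0.21 (adjusted p = 0.085) and the fasting difference -0.79 ± 0.21 in heterozygotes (adjusted p = 0.085) and 0.02 ± 0.21 in mutants (adjusted p = 0.97), none of which was called.

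Acsl5, another long-chain acyl-CoA synthetase, was likewise lowest in fasted heterozygotes. Its fasted heterozygous arrays read 11.64, 11.80, 11.68 and 11.83, below the 11.84 to 12.13 of the other 12 arrays. In the fasted state it was 1.22-fold higher in mutants (0.28 ± 0.07, adjusted p = 0.013), against -0.01 ± 0.07 in the unfasted state. Its fasting difference was -0.26 ± 0.07 in heterozygotes (adjusted p = 0.071) and 0.03 ± 0.07 in mutants. Acsl4 and Acsl5 were called in the fasted genotype comparison under all alternatives tried.

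Of the 4 entry genes 3 were called higher with fasting in heterozygotes and 1 in mutants, where 0.732% and 2.33% of all genes were. None was called between genotypes, where 7.94% unfasted and 13.6% fasted of all genes were called in either direction. All 4 genotype differences were above 0 in each feeding state, with medians of 0.23 unfasted and 0.12 fasted. In the unfasted state 3 of the 4 had an unadjusted limma p under 0.05, and in the fasted state 0. Cpt1a, the liver carnitine palmitoyltransferase 1 and the known control point of the pathway, read 12.12, 11.76, 11.83 and 11.55 in unfasted and 12.26, 12.27, 12.43 and 12.38 in fasted heterozygotes. In mutants it read 12.14, 12.12, 12.14 and 11.80 unfasted and 12.54, 12.43, 12.56 and 12.52 fasted. In each genotype all fasted arrays lay above all unfasted ones. Cpt1a rose 1.43-fold in heterozygotes (0.52 ± 0.10, adjusted p = 0.015) and 1.38-fold in mutants (0.46 ± 0.10, adjusted p = 0.023). The heterozygous call was lost without HetFasted replicate 3 (adjusted p = 0.054), and the mutant call without MutUnfasted replicate 4 or MutFasted replicate 3 (adjusted p up to 0.059) and in a fit of only the mutant arrays (adjusted p = 0.077). The genotype differences of Cpt1a were 0.24 ± 0.10 unfasted (adjusted p = 0.17) and 0.18 ± 0.10 fasted (adjusted p = 0.25).

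Cpt2, which turns the carnitine esters back into acyl-CoA inside the mitochondrion, read 11.71, 11.76, 11.72 and 11.62 in unfasted heterozygotes and 12.05, 12.05, 11.98 and 12.02 in fasted ones. The groups lay apart, and Cpt2 rose by 0.32 ± 0.07 (adjusted p = 0.022). In mutants the difference was 0.23 ± 0.07 (adjusted p = 0.066). Crat, the carnitine acetyltransferase, which moves acetyl and other short acyl groups onto carnitine, was the most variable of the 27 enzyme genes in unfasted heterozygotes at 11.08, 11.34, 10.91 and 10.35, against 11.57, 11.74, 11.50 and 11.65 after the fast. It rose 1.62-fold (0.69 ± 0.16, adjusted p = 0.034), and the mutant difference was 0.45 ± 0.16 (adjusted p = 0.11). Leaving out any 1 of 5 arrays ended the heterozygous call of Cpt2 (adjusted p up to 0.085), and any 1 of 6 that of Crat (up to 0.11). Mlycd, the decarboxylase that removes the inhibitor malonyl-CoA, ranged from 9.24 to 9.38 in unfasted and from 9.54 to 9.70 in fasted heterozygotes, a difference of 0.33 ± 0.08 that was not called (adjusted p = 0.064).

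The region upstream of Cpt1a is shown because the gene was called with fasting in both genotypes, and those of Acadm and Acadvl because they are the other fatty acid entry and dehydrogenase genes with the same short motif. Each is the 250 bases before the transcript start from RefSeq on GRCm38.p6, at chr19:3323051-3323300 on the plus strand for Cpt1a, chr3:153944644-153944893 on the minus strand for Acadm and chr11:70015429-70015678 on the minus strand for Acadvl. Capitals mark AGGTCA, the core element recognised by many nuclear receptors, read on either strand, so that it appears as TGACCT where it lies on the opposite one. The motif begins 94 bases before the start in Cpt1a, 249 in Acadm and 87 in Acadvl.
Cpt1a: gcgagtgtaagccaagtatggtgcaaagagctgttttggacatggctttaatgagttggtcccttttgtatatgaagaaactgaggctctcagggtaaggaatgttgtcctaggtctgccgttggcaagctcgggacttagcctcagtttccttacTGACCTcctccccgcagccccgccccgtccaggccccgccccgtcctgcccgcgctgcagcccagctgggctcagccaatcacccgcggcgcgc
Acadm: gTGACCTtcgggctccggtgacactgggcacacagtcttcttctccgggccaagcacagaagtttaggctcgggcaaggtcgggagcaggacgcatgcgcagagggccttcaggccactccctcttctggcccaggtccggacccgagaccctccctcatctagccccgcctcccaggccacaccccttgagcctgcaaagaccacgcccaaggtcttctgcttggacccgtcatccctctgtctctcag
Acadvl: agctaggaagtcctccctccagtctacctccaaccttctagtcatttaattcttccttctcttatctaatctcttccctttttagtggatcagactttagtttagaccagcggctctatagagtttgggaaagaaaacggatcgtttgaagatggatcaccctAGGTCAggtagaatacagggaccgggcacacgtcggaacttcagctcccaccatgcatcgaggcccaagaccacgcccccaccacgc
Of 23 such windows for 22 of the enzyme genes, 4 held AGGTCA on either strand (those of Acadm, Acadvl, Cpt1a and Echs1), where 14% of 32851 windows in the RefSeq table did. Crat, Acad9, Acaa2, Decr1 and Acat1 had no window in this count. A chromosome left out of the enzyme windows was not excluded from the 32851. A direct repeat of AGGTCA with 1 base of any kind between the copies, the textbook form of a PPAR-alpha element, was in 0 of the 23 and in 0.0335% of all windows. These matches describe letters in this window alone.

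**Figure D2:**
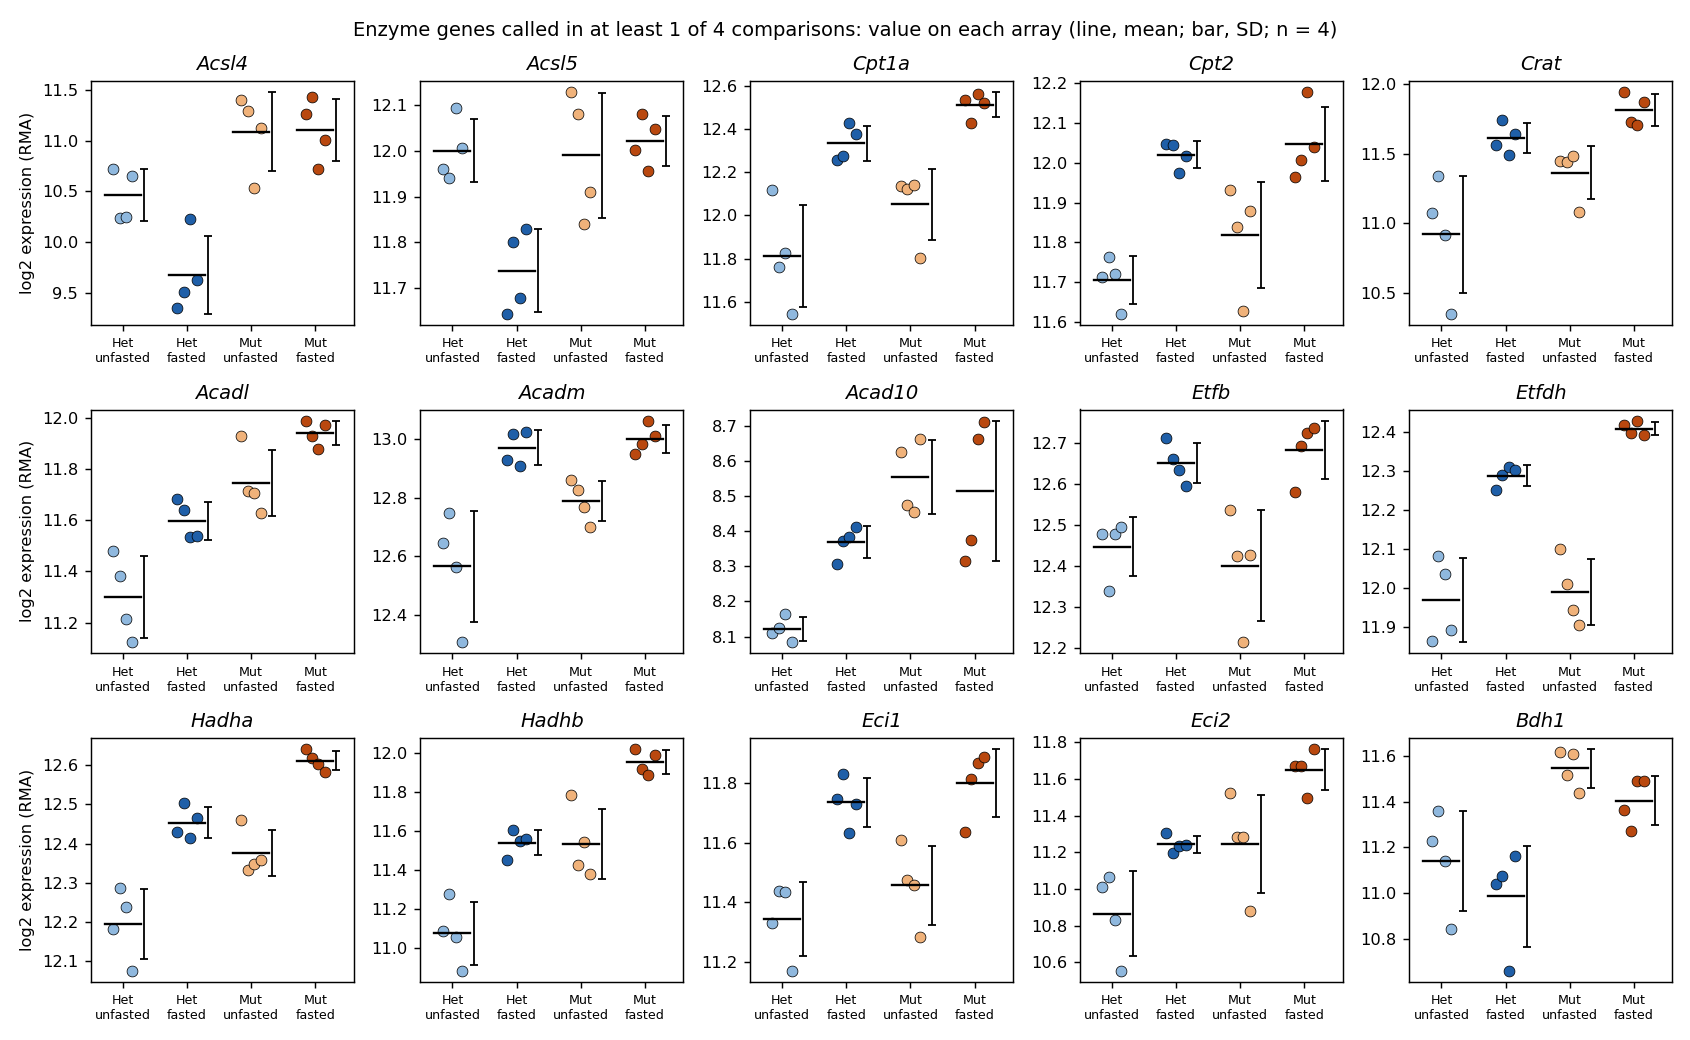
Log2 expression (vertical axis, one scale per panel, not starting at 0) of the 15 enzyme genes called in at least 1 of the 4 pairwise comparisons, with a point per array, a line at the group mean and a bar for the SD (n = 4). Cpt1a and Etfdh are high in both fasted groups, Bdh1 is high in both mutant groups, and Hadhb steps up with fasting and with genotype.

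Among the 7 acyl-CoA dehydrogenases, Acadl was higher in mutants in both feeding states, Acad10 in the unfasted state and Acadm rose with fasting in heterozygotes. Acadl, the long-chain acyl-CoA dehydrogenase, read 11.48, 11.38, 11.22 and 11.12 in unfasted heterozygotes and 11.93, 11.71, 11.71 and 11.63 in unfasted mutants. After the fast it read 11.68, 11.64, 11.53 and 11.54 in heterozygotes and 11.99, 11.93, 11.88 and 11.97 in mutants. The genotypes did not overlap in either state. Acadl was 1.36-fold higher in unfasted mutants (0.44 ± 0.08, adjusted p = 0.0037) and 1.27-fold higher in fasted mutants (0.34 ± 0.08, adjusted p = 0.010), and both calls were kept under all alternatives. The fasting differences were 0.30 ± 0.08 in heterozygotes (adjusted p = 0.078) and 0.20 ± 0.08 in mutants (adjusted p = 0.16).

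Acad10, a relative of these dehydrogenases, read 8.11, 8.12, 8.16 and 8.08 in unfasted heterozygotes and 8.62, 8.47, 8.45 and 8.66 in unfasted mutants. The groups lay apart and the difference of 0.43 ± 0.08 was 1.35-fold (adjusted p = 0.0051), also under all alternatives. Fasted arrays overlapped between genotypes, at 8.31 to 8.41 in heterozygotes and 8.31 to 8.71 in mutants (0.15 ± 0.08, adjusted p = 0.24). Acadm, the medium-chain acyl-CoA dehydrogenase, read 12.64, 12.75, 12.56 and 12.31 in unfasted and 12.93, 13.02, 12.91 and 13.03 in fasted heterozygotes, without overlap. It rose 1.32-fold (0.40 ± 0.07, adjusted p = 0.012), and this call too was kept under all alternatives. In mutants the fasting difference of Acadm was 0.21 ± 0.07 (adjusted p = 0.11), and its genotype difference was 0.22 ± 0.07 unfasted (adjusted p = 0.076) and 0.03 ± 0.07 fasted.

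The very-long-chain enzyme Acadvl passed no test, with fasting differences of 0.32 ± 0.08 in heterozygotes (adjusted p = 0.077) and 0.31 ± 0.08 in mutants (adjusted p = 0.054). Acad11 was likewise not called, with 0.20 ± 0.07 and 0.26 ± 0.07 (adjusted p = 0.20 and 0.051). The short-chain enzyme Acads and Acad9, which is also known as an assembly factor of respiratory complex I, had differences of at most 0.18 and 0.02, and neither was called in any comparison.

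Of the 3 electron transfer genes 1 was called higher with fasting in heterozygotes and 2 in mutants, where 0.732% and 2.33% of all genes were. None was called between genotypes, where 7.94% unfasted and 13.6% fasted of all genes were called in either direction. Etfdh, which hands electrons from the flavoprotein to ubiquinone, read 11.86, 12.08, 12.04 and 11.89 in unfasted and 12.25, 12.29, 12.31 and 12.30 in fasted heterozygotes. In mutants it read 12.10, 12.01, 11.94 and 11.90 unfasted and 12.42, 12.40, 12.43 and 12.39 fasted. All 8 fasted arrays lay above all 8 unfasted ones. Etfdh rose 1.25-fold in heterozygotes (0.32 ± 0.06, adjusted p = 0.0095) and 1.34-fold in mutants (0.42 ± 0.06, adjusted p = 0.0027) under all alternatives. Its genotype differences, 0.02 ± 0.06 unfasted and 0.12 ± 0.06 fasted, were not called. The fasted one had an unadjusted limma p of 0.047, and the fasted arrays did not overlap between genotypes.

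Etfb, the beta subunit of the flavoprotein, read 12.54, 12.43, 12.21 and 12.43 in unfasted and 12.58, 12.69, 12.72 and 12.74 in fasted mutants. The groups did not overlap, and Etfb rose 1.22-fold in mutants (0.28 ± 0.06, adjusted p = 0.026). Leaving out any 1 of 6 arrays ended that call (adjusted p up to 0.070) and in a fit of only the mutant arrays (adjusted p = 0.15). The heterozygous difference was 0.20 ± 0.06 (adjusted p = 0.14). Etfa, the alpha subunit, lay between 11.83 and 12.07 on all arrays, with no difference called.

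The trifunctional protein, which carries out the later reactions on long-chain acyl-CoA, was called in each of the 4 comparisons through both of its genes. Over all genes, 16 of 19938 (0.080%) were called in all 4. Hadhb, the beta subunit with the thiolase, read 11.09, 11.28, 11.06 and 10.89 in unfasted heterozygotes and 11.45, 11.61, 11.55 and 11.56 in fasted ones. In mutants it read 11.78, 11.43, 11.54 and 11.38 unfasted and 12.02, 11.92, 11.88 and 11.99 fasted. Unfasted heterozygotes were lowest, fasted mutants highest, and fasted heterozygotes and unfasted mutants overlapped in between. The genotype differences were 1.37-fold unfasted (0.46 ± 0.09, adjusted p = 0.0059) and 1.33-fold fasted (0.41 ± 0.09, adjusted p = 0.0072). The fasting differences were 1.38-fold in heterozygotes (0.46 ± 0.09, adjusted p = 0.015) and 1.34-fold in mutants (0.42 ± 0.09, adjusted p = 0.020). The other probe set of Hadhb gave group means of 11.05, 11.51, 11.50 and 11.93 in the order HetUnfasted, HetFasted, MutUnfasted and MutFasted, against 11.08, 11.54, 11.53 and 11.95 for the probe set used.

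Hadha, the alpha subunit with the hydratase and hydroxyacyl-CoA dehydrogenase, had the same order at a smaller size. It read 12.18, 12.29, 12.24 and 12.08 in unfasted heterozygotes and 12.43, 12.50, 12.41 and 12.47 in fasted ones. In mutants it read 12.46, 12.33, 12.35 and 12.36 unfasted and 12.64, 12.62, 12.60 and 12.58 fasted. Groups did not overlap in any of the 4 comparisons. Hadha rose 1.20-fold with fasting in heterozygotes (0.26 ± 0.05, adjusted p = 0.015) and 1.18-fold in mutants (0.24 ± 0.05, adjusted p = 0.020). Its genotype differences were 0.18 ± 0.05 unfasted (adjusted p = 0.037) and 0.16 ± 0.05 fasted (adjusted p = 0.046).

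Several calls of this protein were lost when 1 array was left out or a setting was changed. For Hadha between unfasted genotypes, 8 of the 16 single-array omissions ended the call (highest adjusted p = 0.12). HetFasted replicate 4 was among these 8, and HetUnfasted replicate 2 was not. Between fasted genotypes 12 omissions did so (highest adjusted p = 0.10), including HetUnfasted replicates 1 and 3 and MutUnfasted replicates 2 and 4. Arrays outside a comparison still enter the shared estimate of spread. Centring arrays on their median ended both Hadha genotype calls (adjusted p = 0.052 and 0.055). The unfasted one also ended in a fit of only the unfasted arrays (adjusted p = 0.15). The fasted one also ended after a second quantile normalization (adjusted p = 0.056). Without HetUnfasted replicate 4 or HetFasted replicate 2 the heterozygous fasting calls of Hadha and Hadhb were lost (adjusted p up to 0.056 and 0.051), and without MutUnfasted replicate 2 or MutFasted replicate 2 the mutant ones (up to 0.060 and 0.059), that of Hadhb also without MutUnfasted replicate 4. A fit of only the arrays compared ended the mutant fasting calls (adjusted p = 0.10 for Hadha and 0.10 for Hadhb) and the unfasted genotype call of Hadhb (adjusted p = 0.051).

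The genes of the trifunctional protein lie head to head on chromosome 5 and share their upstream region, which is shown because both moved in the same comparisons. In RefSeq on GRCm38.p6, Hadha starts at base 30154980 on the minus strand and Hadhb at base 30155253 on the plus strand, with 272 bases between the starts. Their 250-base upstream windows share 228 bases, chr5:30155003-30155230. The window of Hadhb is chr5:30155003-30155252 on the plus strand. It holds GGGCGG, the core of a GC box, beginning 90 and 25 bases before its start, in capitals. The match at 90 lies within the shared bases, and the match at 25 runs past their end. The window of Hadha holds 1 match on either strand.
Hadhb: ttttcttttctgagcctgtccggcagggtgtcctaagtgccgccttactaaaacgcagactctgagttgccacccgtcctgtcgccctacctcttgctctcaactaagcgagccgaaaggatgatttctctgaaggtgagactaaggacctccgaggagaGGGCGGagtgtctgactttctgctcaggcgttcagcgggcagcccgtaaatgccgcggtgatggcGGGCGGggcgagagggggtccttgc
GGGCGG on either strand was in 12 of the 23 windows of the enzyme genes and in 32.7% of all windows. CCAAT, another common promoter motif, was in 9 of the 23, those of Hadha and Hadhb not among them, and in 33.8% of all windows.

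No difference was called for the remaining enzymes of the cycle. Acaa2, the mitochondrial thiolase for medium-chain substrates, read between 12.99 and 13.20 on all 16 arrays, and its 4 differences lay between -0.01 and 0.04 with 95% confidence intervals within -0.11 to 0.14. Hadh, the hydroxyacyl-CoA dehydrogenase for shorter chains, ranged from 12.53 to 12.91, and Echs1, the short-chain enoyl-CoA hydratase, from 11.09 to 11.59. The difference of Hadh between unfasted genotypes was 0.15 ± 0.06 (adjusted p = 0.14), and those of Echs1 were between -0.08 and 0.08.

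Unsaturated fatty acids need auxiliary enzymes that move or remove unsaturated bonds. Eci1, an enoyl-CoA isomerase, read 11.33, 11.44, 11.44 and 11.17 in unfasted and 11.75, 11.83, 11.63 and 11.73 in fasted heterozygotes. In mutants it read 11.61, 11.47, 11.46 and 11.28 unfasted and 11.64, 11.81, 11.87 and 11.89 fasted. The feeding groups lay apart in both genotypes, narrowly in mutants. Eci1 rose 1.31-fold in heterozygotes (0.39 ± 0.08, adjusted p = 0.022) and 1.27-fold in mutants (0.34 ± 0.08, adjusted p = 0.030), and its genotype differences were not called. These calls were lost without any 1 of 4 arrays in heterozygotes (adjusted p up to 0.080) and of 6 in mutants (up to 0.083), and the mutant one also in a fit of only the mutant arrays (adjusted p = 0.13) and after a second quantile normalization (adjusted p = 0.051).

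Eci2, a related isomerase, read 11.31, 11.20, 11.24 and 11.24 in fasted heterozygotes and 11.67, 11.67, 11.50 and 11.76 in fasted mutants. The mutant arrays were all higher, by 0.41 ± 0.12 (adjusted p = 0.038), a call that any 1 of 7 arrays left out would end (adjusted p up to 0.088). Its unfasted genotype difference was 0.38 ± 0.12 (adjusted p = 0.069). Decr1, the dienoyl-CoA reductase, ranged from 11.33 to 12.06 and was not called, its largest difference being 0.26 ± 0.10 between fasted genotypes (adjusted p = 0.11).

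Ketone body metabolism was represented by Bdh1, Acat1 and Oxct1. Bdh1, the mitochondrial dehydrogenase that converts acetoacetate to beta-hydroxybutyrate, was called between genotypes and not with fasting. It read 11.23, 11.36, 11.14 and 10.84 in unfasted and 11.04, 11.07, 10.66 and 11.16 in fasted heterozygotes. Mutants read 11.62, 11.52, 11.61 and 11.44 unfasted and 11.36, 11.27, 11.49 and 11.49 fasted. Within each feeding state every mutant array lay above every heterozygous one. Bdh1 was higher in mutants by 0.41 ± 0.11 unfasted (adjusted p = 0.038) and 1.34-fold fasted (0.42 ± 0.11, adjusted p = 0.023). The fasting differences were -0.16 ± 0.11 in heterozygotes (adjusted p = 0.67) and -0.14 ± 0.11 in mutants (adjusted p = 0.47). The genotype calls were lost without any 1 of 5 arrays in the unfasted state (adjusted p up to 0.12), where a fit of only the unfasted arrays also ended the call (adjusted p = 0.068), and without HetFasted replicate 3, MutFasted replicate 3 or MutFasted replicate 4 in the fasted state (adjusted p up to 0.064).

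Acat1, the thiolase that joins and splits acetoacetyl-CoA, ranged from 11.77 to 12.37 and had differences of 0.11 to 0.17, none called. Oxct1, which lets tissues other than liver use ketone bodies, ranged from 6.43 to 6.94, with an unfasted genotype difference of 0.16 ± 0.07 (adjusted p = 0.17) and no call. In all, 12 of the 27 genes were called in none of the 4 comparisons, where 16055 of all 19938 genes were called in none. The 12 were Mlycd, Acadvl, Acads, Acad9, Acad11, Etfa, Hadh, Echs1, Acaa2, Decr1, Acat1 and Oxct1.

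**Figure D3:**
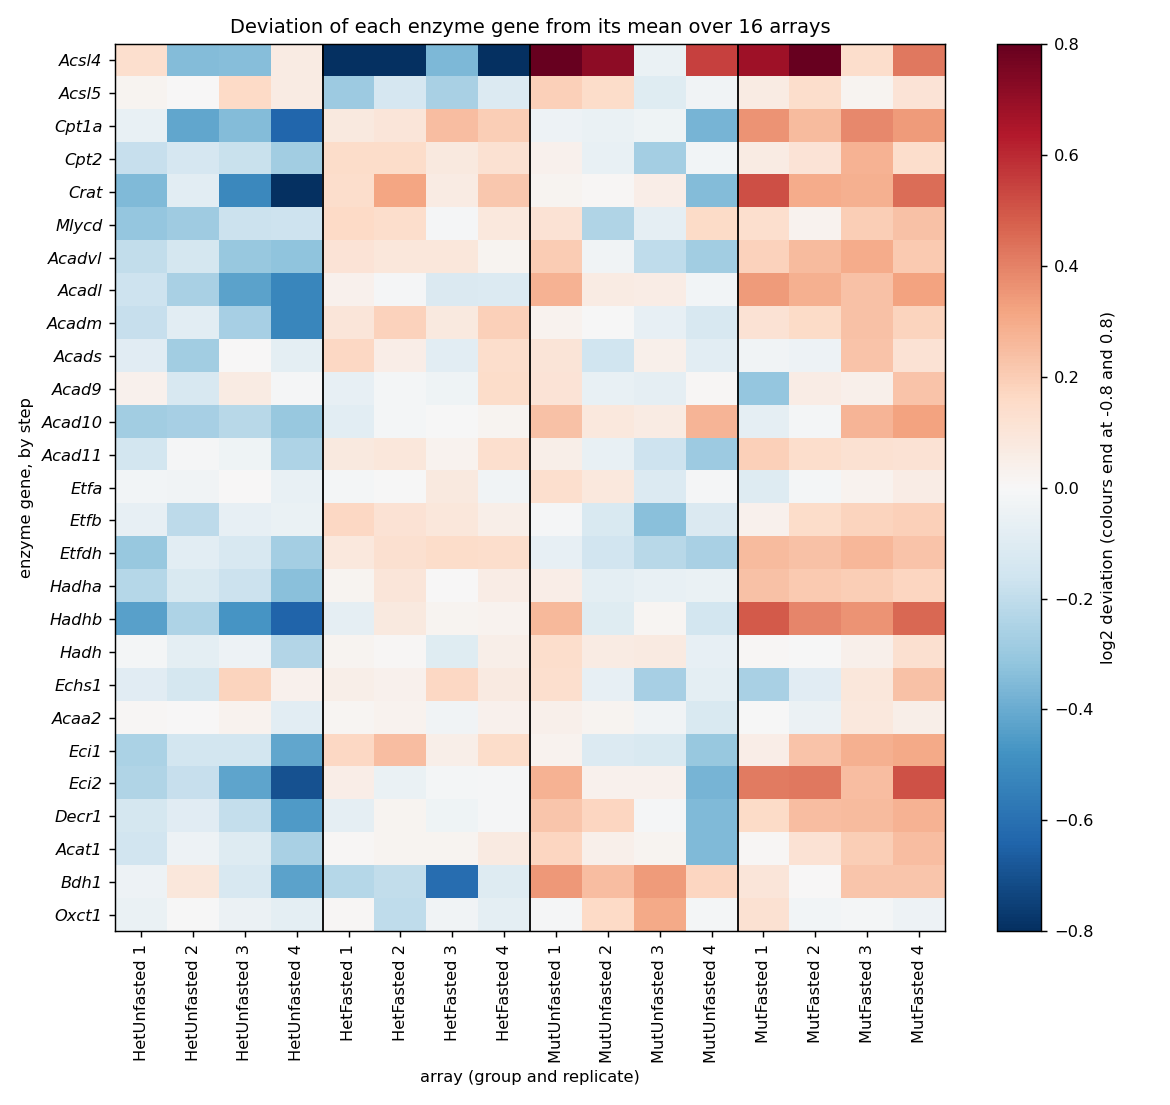
Deviation of each enzyme gene (rows, by step) from its own mean over 16 arrays (columns, by group and replicate), on a log2 colour scale that ends at -0.8 and 0.8. HetUnfasted replicate 4 was the lowest of its group for 19 of 27 genes, and MutUnfasted replicate 1, with acinar transcripts, was the highest of its group for 22 of 27.

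Within groups, some arrays were low or high for many of the enzyme genes. HetUnfasted replicate 4 was lowest of its group for 19 of the 27 genes, MutUnfasted replicate 4 for 16 and HetFasted replicate 3 for 12. MutUnfasted replicate 1 was highest of its group for 22, HetUnfasted replicate 2 for 14 and MutFasted replicate 4 for 12. The median deviation of the 27 genes from their means over all arrays ran from -0.27 in HetUnfasted replicate 4 to 0.23 in MutFasted replicate 4.

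The fasting responses of the genotypes were compared directly by the interaction of genotype and fasting. None of the 27 genes was called by limma, where 0.0100% of all genes, 2 of 19938, were, and 3 of the 27 had an unadjusted p under 0.05. These were Acsl4, whose fasting difference was higher in mutants by 0.80 ± 0.30 (adjusted p = 0.40), Acsl5, higher by 0.29 ± 0.10 (adjusted p = 0.37), and Acad10, lower in mutants, at -0.29 ± 0.12 (adjusted p = 0.42). A fasting response called in 1 genotype alone, as for Cpt2, Crat, Acadm and Etfb, was thus not shown to differ between genotypes. For Cpt1a the interaction was -0.06 ± 0.14 and for Hadhb -0.04 ± 0.12.

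**Figure D4:**
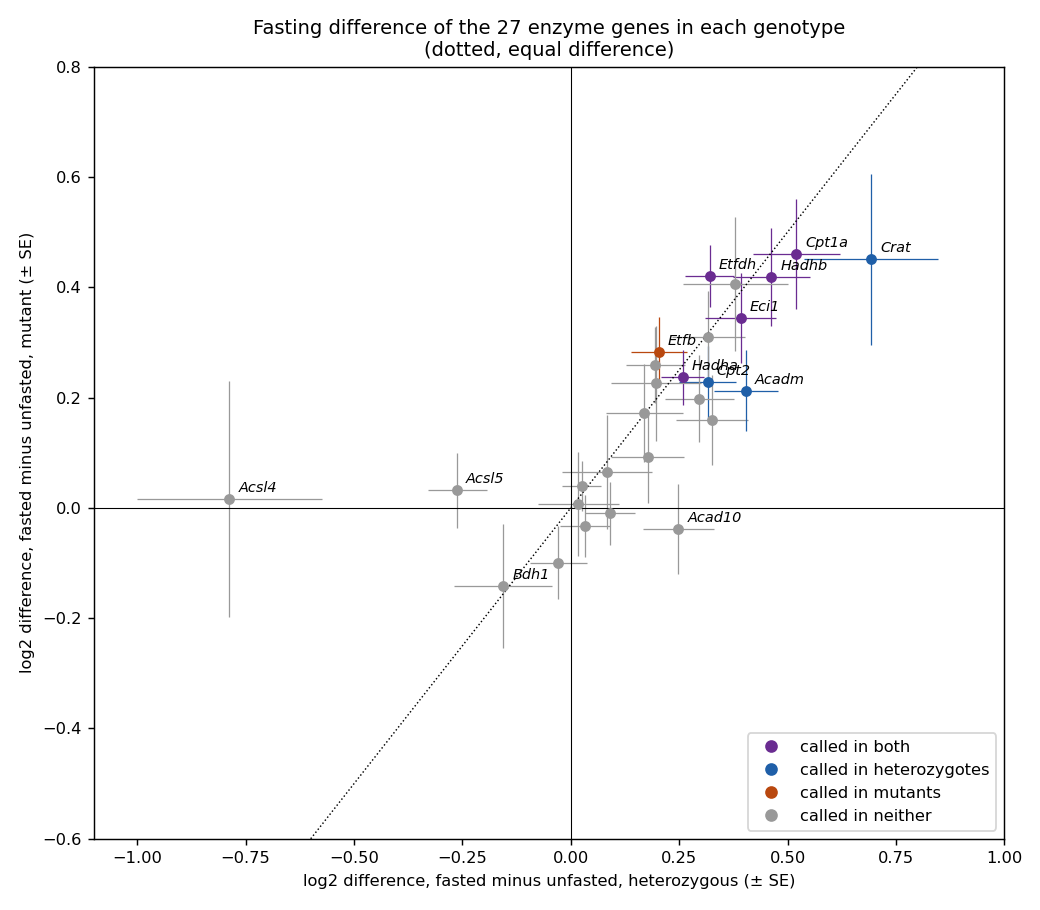
Fasting difference of the 27 enzyme genes in heterozygotes (horizontal axis) and mutants (vertical axis), log2 with standard errors, coloured by where the difference was called, with a dotted line of equal difference. The 5 genes called in both genotypes, Cpt1a, Etfdh, Hadha, Hadhb and Eci1, lie near the line, and Acsl4 lies at -0.79 in heterozygotes and 0.02 in mutants.

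Setting unfasted mutants against fasted heterozygotes separated the enzymes of the pathway. This comparison equals the unfasted genotype difference minus the heterozygous fasting difference and so tests whether they differ. Of the 27 genes 3 were higher and 3 lower in unfasted mutants, where 5.96% of all genes were called higher, 4.90% lower and 10.9% in either direction, and the median was -0.06 against 0.00 over all genes. Acsl4 (1.41 ± 0.21, adjusted p = 0.00082), Acsl5 (0.25 ± 0.07, adjusted p = 0.026) and Bdh1 (0.56 ± 0.11, adjusted p = 0.0049) were higher in the unfasted mutants. Etfdh (-0.30 ± 0.06, adjusted p = 0.0032), Etfb (-0.25 ± 0.06, adjusted p = 0.020) and Eci1 (-0.28 ± 0.08, adjusted p = 0.036) were lower. Hadhb differed by -0.01 ± 0.09, with a 95% confidence interval of -0.19 to 0.18, and Cpt1a by -0.28 ± 0.10 (adjusted p = 0.085). Without HetFasted replicate 1 the count was 3, with Acsl4, Etfdh and Bdh1 left, and without MutUnfasted replicate 1 it was 9, while a fit of only the arrays compared called 3. Acsl4, Etfdh and Bdh1 were called under all alternatives.

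Around these enzymes, other genes of carnitine and malonyl-CoA metabolism were measured for 9 of 10 listed. With fasting, 1 rose and 1 fell in heterozygotes, where 1.57% of all genes were called in either direction, and 2 rose and 1 fell in mutants, where 3.35% were. Between genotypes 1 of the 9 was called in each feeding state, where 7.94% and 13.6% of all genes were, so these counts lie near the background. Acaca, the carboxylase that makes malonyl-CoA for fatty acid synthesis, fell by 0.92 in heterozygotes and by 0.97 in mutants (SE 0.11 in each, adjusted p = 0.00067 and 0.00064). Slc22a5, the cellular carnitine transporter, rose 1.99-fold in heterozygotes (adjusted p = 0.022), with a log2 difference of 0.78 ± 0.21 in mutants (adjusted p = 0.051). Slc25a20, the carnitine-acylcarnitine carrier of the inner membrane, had differences of 0.42 ± 0.10 in heterozygotes (adjusted p = 0.051) and 0.41 ± 0.10 in mutants, where it rose (adjusted p = 0.038), and Crot, the peroxisomal carnitine octanoyltransferase, rose by 0.36 in mutants (adjusted p = 0.024). Between genotypes, Acacb, which makes malonyl-CoA at the mitochondrion, was higher in fasted mutants by 0.62 ± 0.18 (adjusted p = 0.033), and Bbox1, the last enzyme of carnitine synthesis, was lower in unfasted mutants (-0.35, adjusted p = 0.031).

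Other ketone body genes, 6 of 8 measured, included transporters and a cytosolic dehydrogenase that differed by genotype. In unfasted mutants 1 was higher and 1 lower, and in fasted mutants 2 were higher and 1 lower, where 7.94% and 13.6% of all genes were called in either direction. Bdh2, a short-chain dehydrogenase related to Bdh1 by name, averaged 8.72 and 8.16 in unfasted and fasted heterozygotes and 7.11 and 6.81 in mutants. It was lower in mutants by -1.61 ± 0.13 unfasted (adjusted p = 8.4e-06) and -1.35 ± 0.13 fasted (adjusted p = 4.9e-05), opposite in sign to Bdh1. The monocarboxylate transporter Slc16a7 was higher in mutants by 0.86 ± 0.11 unfasted (adjusted p = 0.00040) and 0.42 fasted (adjusted p = 0.020), and Slc16a1 was higher in fasted mutants by 0.54 ± 0.12 (adjusted p = 0.0073). With fasting, 2 of the 6 fell in heterozygotes, Bdh2 (-0.56, adjusted p = 0.047) and Aacs, the acetoacetyl-CoA synthetase that uses ketone bodies for lipid synthesis (-1.27 ± 0.19, adjusted p = 0.0049), and 1, Slc16a1, rose in mutants, where 1.57% and 3.35% of all genes were called in either direction.

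A list of 11 further mitochondrial oxidation enzymes held those of branched-chain amino acids and propionate, Gcdh for glutaryl-CoA, and Eci3 and Ech1 of fatty acid oxidation. Of the 11, 4 were called lower in unfasted mutants and 3 in fasted mutants, where 3.69% and 5.01% of all genes were, and none was called higher. The medians were -0.23 and -0.27, against 0.01 and -0.02 over all genes. The genes called all belong to branched-chain amino acid or propionate breakdown, and their differences were opposite in sign to that of Acadl. Acadsb, which acts on short branched acyl-CoA, was lower by -0.70 ± 0.15 unfasted (adjusted p = 0.010) and -0.62 fasted (adjusted p = 0.013). Hsd17b10, of isoleucine breakdown, was lower by -0.46 and -0.51 (adjusted p = 0.021 and 0.0078). Acad8 of valine breakdown (-0.32, adjusted p = 0.044) and Pcca of propionyl-CoA carboxylase (-0.40, adjusted p = 0.040) were lower unfasted, and Ivd of leucine breakdown was lower fasted (-0.52, adjusted p = 0.037). With fasting, 0 of the 11 were called by limma in either genotype, where 3 in heterozygotes and 1 in mutants had an unadjusted p under 0.05. Of 10 other acyl-CoA synthetases the counts between genotypes were below the 7.94% and 13.6% of all genes called: 0 were called by limma between unfasted genotypes (1 at an unadjusted p under 0.05), and 1, the bile acid and fatty acid ligase Slc27a5, was lower in fasted mutants (-0.53 ± 0.11, adjusted p = 0.0064). With fasting, 1 of the 10, Slc27a2, rose in heterozygotes and 1, Acss2, fell in mutants, where 1.57% and 3.35% of all genes were called.

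**Figure D5:**
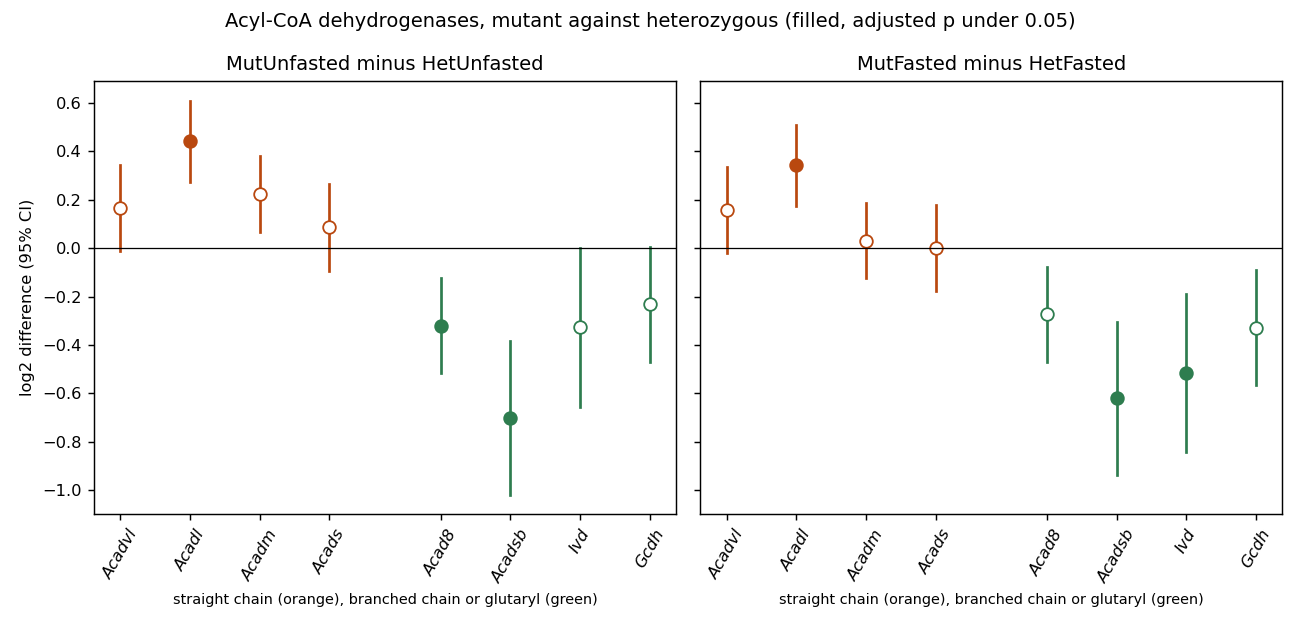
Log2 difference between mutants and heterozygotes with 95% confidence intervals, unfasted at left and fasted at right, for the straight-chain acyl-CoA dehydrogenases (orange) and those for branched-chain or glutaryl substrates (green), filled where called. Acadl lies above 0 at 0.44 and 0.34, and Acadsb lies below 0 at -0.70 and -0.62.

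Among 19 measured regulators and known PPAR-alpha targets, 6 were higher in unfasted and 4 in fasted mutants, and 3 rose with fasting in each genotype, with none called lower. Over all genes 4.25%, 8.62%, 0.732% and 2.33% were called higher, in the order of unfasted mutants, fasted mutants, fasting in heterozygotes and fasting in mutants. In unfasted mutants these were Fgf21, Pdk4, Cyp4a10, Acot1, Acot2 and Ehhadh, and in fasted mutants Ppargc1a, Pdk4, Acot2 and Ehhadh. With fasting they were Angptl4, Cyp4a10 and Ehhadh in heterozygotes and Ppargc1a, Creb3l3 and Ehhadh in mutants. Pdk4, the kinase that restrains pyruvate oxidation, was higher in mutants by 2.17 unfasted (adjusted p = 0.0036) and 1.65 fasted (adjusted p = 0.011). Ppara itself was not called, with differences of 0.03 and -0.12 between genotypes and 0.15 and 0.00 with fasting. Ehhadh, the peroxisomal bifunctional enzyme, was called in each of the 4 comparisons, by 0.66 and 0.57 between genotypes and 0.79 and 0.70 with fasting (adjusted p = 0.013, 0.018, 0.013 and 0.019). Ppargc1a, a coactivator of mitochondrial genes, was higher in fasted mutants by 0.98 ± 0.26 (adjusted p = 0.023) and rose by 1.33 ± 0.26 with fasting in mutants (adjusted p = 0.015).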

How the data were processed

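The authors deposited 1 table of log2 values for 35556 probe sets, made with Affymetrix Expression Console and RMA per the submitters' processing notes, and 300 ng of RNA was labelled per array per the labels' protocols. For versions, library file and filters, nothing was given in the sources used here. The log2 scale was judged from the range of the deposited values, 3.80 to 14.33, and array medians lay between 7.33 and 7.40. There are no detection calls, and the precision stated rests on 4 arrays per group and on a spread estimated jointly from the 16 arrays.

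Probe sets were named from the platform annotation: 21789 had 1 symbol, 1621 had several and 12146 were not listed. Symbols were updated by gene number through a RefSeq table (GRCm38.p6) for 21698, and 91 kept the annotation's symbol. For 999 genes with several probe sets the one with the highest mean was used, which left 19938 genes with no filter on dim ones. With limma 3.58.1 in R 4.3.3, group means were estimated jointly from the 16 arrays (eBayes with a trend, two-sided, Benjamini-Hochberg over all genes), after the code was tested on simulated data. The design text describes separate mice, the labels give no batch or scan date, and no arrays were identical.

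The enzyme genes and the pathway and marker lists were chosen with earlier results of these data known, so no test over a list is given. By rule, enzyme genes are all named, with values per array where called, and genes of the pathway lists where called, besides Slc25a20, Acacb and Ppara. Further genes that the rule names are not reported here. Alternatives were a replicate block, only the arrays compared, median-centred arrays, a second quantile normalization, no variance trend, the mean over probe sets, only genes brighter than the median, and leaving out each array in turn. Deviations of same-numbered arrays from their group means were at most weakly correlated (-0.12 to 0.25 over 24 pairs), and numbers were not taken as pairs. Sequences are RefSeq's, on GRCm38.p6.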

Additional observations from a re-analysis of the deposited data

Results flagged for a closer look

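Values of 108 groups of 4 arrays (27 genes in 4 groups) were looked at for an array far from the other 3 of its group, and 4 were found, where chance alone flags about 1 in 20 groups. Cpt1a read 11.80 in MutUnfasted replicate 4, below the 12.12 to 12.14 of the other 3 arrays, and Crat read 11.08 in the same array, below 11.44 to 11.48. Etfb read 12.34 in HetUnfasted replicate 2, below 12.48 to 12.49. Oxct1 read 6.76 in MutFasted replicate 1, above 6.60 to 6.62.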

How the results depend on the processing

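Of 32 calls of enzyme genes over the comparisons, 12 were kept under all 23 alternatives, 20 were lost under some and 0 changed sign. With only the arrays compared in the fit, 2 genes were called between unfasted genotypes in place of 5, 1 with fasting in mutants in place of 6, and 3 between unfasted mutants and fasted heterozygotes in place of 6. Leaving out 1 array at a time gave 3 to 8 genes between unfasted genotypes, 4 to 7 between fasted genotypes, 3 to 10 with fasting in heterozygotes, 2 to 11 with fasting in mutants and 3 to 9 between unfasted mutants and fasted heterozygotes. The interaction called 0 under every alternative that was run. The share of all genes called under each alternative is not given here, so these changes are not shown to be particular to the enzymes. The cause of the changes was not tested. Each array left out lowers the number of arrays in its group from 4 to 3.

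With the replicate block the counts were 5 and 6 between unfasted and fasted genotypes, 9 and 7 with fasting in heterozygotes and mutants, 0 for the interaction and 6 for the last comparison. The block ended the calls of Bdh1 between unfasted genotypes (adjusted p = 0.056) and Hadha between fasted genotypes (adjusted p = 0.056). The numbers were not taken as pairs in the main fit. Of 16 arrays 6 correlated best with an array of their own number, and whether this exceeds chance was not tested. Median-centring and a second quantile normalization moved the median of all genes by under 0.1. Dim probe sets, such as that of Oxct1, can understate a difference.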
